A study of Rattus norvegicus with 6 samples.

Results

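Astrocytes are the glial cells that wrap synapses and blood vessels, and 8 genes that serve their filaments, transporters and channels were followed here in the rat rostral ventromedial medulla (RVM). These were Gfap, Vim, Cd44, Slc1a2, Slc1a3, Aqp4, Gja1 and S100b, chosen by Ensembl identifier, and all 8 were present among the 22976 genes listed. The table gives identifiers without names, so each name is the one with which its identifier was chosen, and it could not be checked against the RefSeq table used here, which holds no Ensembl identifiers. Astrocytes hold their shape with intermediate filaments of GFAP and vimentin, which are known to increase when the cells become reactive after injury or inflammation. They also clear glutamate from synapses through the transporters encoded by Slc1a2 and Slc1a3, let water pass at the endfeet on vessels through aquaporin-4, and are joined to each other by gap junctions of connexin 43. In the RVM, a brainstem region whose descending fibres facilitate or dampen pain transmission in the spinal cord and trigeminal nuclei, astrocytes have been studied for a part in persistent pain.

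The libraries were from rats given 50 µL of complete Freund's adjuvant (CFA, an oil emulsion with killed mycobacteria that causes lasting inflammation) or the same volume of saline into the temporomandibular joint (the jaw joint) on each side, with the RVM taken on day 3. There were 3 CFA libraries and 3 saline libraries of poly-A RNA, and the labels name no genotype, strain, sex or age. Library totals were 27534174 to 44977905 fragments. Whether each library came from its own animal is not stated in the labels, and the p-values therefore reflect only how much these libraries differ, a spread that may be technical. The values are of tissue, in which more cells of a type and more RNA per cell cannot be told apart. Markers of the RVM and of other cell types could not be matched to identifiers, so the tissue label and the part of other cell types in these results were not tested.

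The comparison of CFA with saline asked how the astrocyte genes differed 3 days after the joint was inflamed. The filament genes and Cd44 rose strongly, the channel genes by 19.2% and 23.6%, and the glutamate transporter genes by little and in opposite directions, while S100b did not pass the test, with group means of 1024.5 and 1024.6 FPKM. Levels are in FPKM, fragments scaled to the length of the gene and the total of the library, and changes are differences of log2(FPKM + 1), tested with limma over the 13566 genes whose mean reached 1 FPKM. All 8 genes passed that filter. Values per library are given below in the order of replicates 1, 2 and 3, and errors are SD over the 3 libraries of a group unless called SE. Of the 8, 7 had an adjusted p under 0.05 (limma with Benjamini-Hochberg adjustment over every gene tested), 6 of them higher in CFA and 1 lower. Among all genes tested 18.8% did, 11.3% being higher and 7.48% lower. Calls were more frequent among genes of 50 to 200 FPKM, with 16.3% higher and 30.0% lower. At 200 FPKM or more the shares were 27.9% and 42.9%. Vim, Gja1, Slc1a3, Gfap, Aqp4 and S100b lie in these 2 classes by mean level over all 6 libraries. Vim (25.0 FPKM in saline, 135.7 in CFA) and Aqp4 (199.7 and 238.0) reach their class only through the CFA values. These shares are therefore not matched to the genes on their saline level. The 8 genes had a median log2 change of 0.28, and all genes tested one of 0.01. In 7 of the 8 the values of the groups did not overlap, which was the case for 37.7% of all genes tested. A log2 change of at least 1 with an adjusted p under 0.05 was seen in 3 of the 8 (Vim, Gfap and Cd44), and in 1.34% of all genes tested. The 8 genes were chosen with earlier results of these data known, so these counts describe them and do not test them as a set. Cd44 passed that threshold narrowly, at 1.02, and the count was 2 where its log2 change was 0.95 (quantile scaling), 0.99 (cyclic loess scaling) or 0.9955 (without replicate 2 of either group).

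Gfap encodes glial fibrillary acidic protein, the main intermediate filament of astrocytes (ENSRNOG00000002919, chromosome 10 in the RefSeq annotation of GRCr8). Its level was 297.8, 289.5 and 296.4 FPKM in the saline libraries and 791.9, 795.4 and 802.0 FPKM in the CFA libraries. Each CFA library lay far above each saline library, and the groups did not overlap. The means were 294.6 ± 4.47 FPKM in saline and 796.4 ± 5.13 FPKM in CFA (n = 3 each, SD), a ratio of 2.70. The log2 change was 1.43 (limma, SE 0.0132 and adjusted p = 1.63e-09). These values rested on 33330 to 44785 fragments in the saline libraries and 73213 to 101286 in the CFA libraries, so that Gfap alone held 0.0985% ± 0.00149 of all fragments in saline and 0.266% ± 0.00171 in CFA (n = 3 each, SD). Among the 154 tested genes that averaged 200 FPKM or more, Gfap had the largest rise on the log2 scale.

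Vim encodes vimentin, an intermediate filament that astrocytes share with endothelial cells, fibroblasts and immune cells (ENSRNOG00000018087, chromosome 17). Its level was 23.4, 25.9 and 25.7 FPKM in the saline libraries and 134.0, 133.9 and 139.2 FPKM in the CFA libraries. All CFA libraries were again well above all saline libraries. Vim had the largest change of the 8 genes, with means of 25.0 ± 1.39 and 135.7 ± 3.04 FPKM (n = 3 each, SD), a ratio of 5.43. The log2 change was 2.39 (limma, SE 0.0392 and adjusted p = 1.86e-08), and 17 of the 13566 genes tested, Vim among them, had a log2 rise at least as large. It rested on 1577 to 1859 fragments in saline libraries and 6505 to 9052 in CFA libraries.

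Cd44 encodes a cell surface receptor for hyaluronan that is known to mark fibrous and reactive astrocytes and is also made by leukocytes (ENSRNOG00000006094, chromosome 3). It was the scarcest of the 8 genes. Its level was 1.73, 1.55 and 1.67 FPKM in the saline libraries and 4.16, 4.59 and 4.41 FPKM in the CFA libraries. The groups were separate, with no CFA library near the saline range. The means were 1.65 ± 0.0896 and 4.39 ± 0.216 FPKM (n = 3 each, SD), a ratio of 2.66 that lies close to the 2.70 of Gfap. The log2 change was 1.02 (limma, SE 0.0630 and adjusted p = 2.46e-05). The added 1 FPKM understates the change of a gene at this level, and with 0.01 FPKM added in its place the log2 change was 1.40 for Cd44 and 1.43 for Gfap. Cd44 rested on 227 to 330 fragments in saline libraries and 536 to 675 in CFA libraries.

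**Figure D1:**
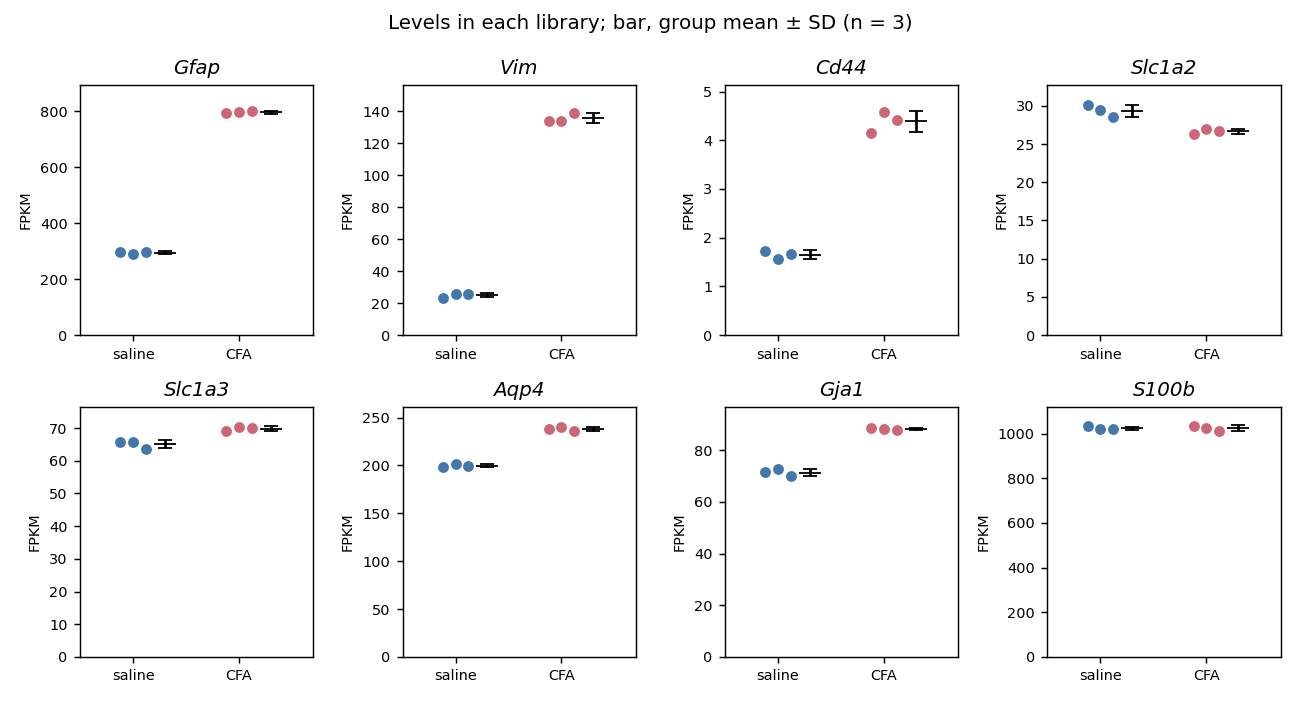
Level of each of the 8 genes in FPKM (vertical axes, from 0) in the 3 saline (blue) and 3 CFA (red) libraries, with the group mean ± SD beside the points. Gfap, Vim and Cd44 stand far higher in CFA, Aqp4 and Gja1 somewhat higher, Slc1a3 slightly higher, Slc1a2 slightly lower, and the S100b values of the groups overlap.

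The start-site regions of the 3 genes with the largest rises among the 8 are given below from RefSeq (build GRCr8, 250 bases before to 50 after the start site), together with that of Gja1, the gene of the 8 with an AP-1 match, so that the regions of genes that rose in the same libraries can be read side by side. Motif matches are in capitals. The Gfap window is chr10:88361612-88361911 on the minus strand, that of Vim chr17:81577011-81577310 on the plus strand, that of Cd44 chr3:109699375-109699674 on the minus strand and that of Gja1 chr20:36302314-36302613 on the plus strand.
Gfap: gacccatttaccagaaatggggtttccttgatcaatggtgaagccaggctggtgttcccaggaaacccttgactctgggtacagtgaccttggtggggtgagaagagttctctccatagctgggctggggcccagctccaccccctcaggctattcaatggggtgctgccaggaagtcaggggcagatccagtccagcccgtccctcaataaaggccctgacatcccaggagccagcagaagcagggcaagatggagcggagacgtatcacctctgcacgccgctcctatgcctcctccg
Vim: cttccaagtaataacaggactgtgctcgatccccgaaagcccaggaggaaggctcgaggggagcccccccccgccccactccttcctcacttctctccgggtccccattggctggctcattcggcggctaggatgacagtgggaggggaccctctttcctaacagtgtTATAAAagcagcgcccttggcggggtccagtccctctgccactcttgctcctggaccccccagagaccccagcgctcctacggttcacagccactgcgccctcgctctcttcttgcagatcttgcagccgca
Cd44: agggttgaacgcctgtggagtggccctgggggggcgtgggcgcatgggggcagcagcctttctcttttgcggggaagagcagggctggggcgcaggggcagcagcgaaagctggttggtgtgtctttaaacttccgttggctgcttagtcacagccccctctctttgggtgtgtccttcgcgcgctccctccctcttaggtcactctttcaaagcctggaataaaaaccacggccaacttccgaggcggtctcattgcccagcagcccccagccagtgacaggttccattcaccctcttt
Gja1: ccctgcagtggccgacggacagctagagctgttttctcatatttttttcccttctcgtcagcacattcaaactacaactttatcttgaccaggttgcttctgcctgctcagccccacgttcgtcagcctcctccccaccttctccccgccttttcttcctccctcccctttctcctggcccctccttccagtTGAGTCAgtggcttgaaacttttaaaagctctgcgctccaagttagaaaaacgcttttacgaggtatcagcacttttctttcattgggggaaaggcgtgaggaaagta

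The motifs searched on each strand were the STAT palindrome TTCNNNGAA, the AP-1 site TGANTCA and the TATA box TATAAA, and their matches did not overlap in these windows. All 8 genes had at least 1 window in the RefSeq table, 12 windows in all. The Vim window held a TATAAA that starts 82 bases before the listed start site, and the Gja1 window a TGAGTCA that starts 58 bases before it. The other 10 windows held no match to any of the 3 motifs. Among these, the 3 windows of Slc1a3 overlap almost fully, so the 10 are not separate sequences. Among all 33469 windows of the same length, 8.87% held the STAT letters, 7.33% the AP-1 letters and 14.2% the TATA letters. A match or its absence in these windows describes the letters only, and the reference build is not the mRatBN7.2 named by the submitters.

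The channel genes rose together by a moderate amount. Aqp4 encodes aquaporin-4, the water channel of astrocyte endfeet (ENSRNOG00000016043, chromosome 18). Its level was 198.2, 201.5 and 199.6 FPKM in the saline libraries and 237.6, 240.0 and 236.5 FPKM in the CFA libraries. The groups did not overlap, and the gap between them was many times the range within either. The means of 199.7 ± 1.64 and 238.0 ± 1.78 FPKM (n = 3 each, SD) differed by 19.2% of the saline mean, a log2 change of 0.25 (limma, SE 0.0130 and adjusted p = 8.71e-06).

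Gja1 encodes connexin 43, the main gap junction protein of astrocytes (ENSRNOG00000000805, chromosome 20). Its level was 71.4, 72.8 and 70.0 FPKM in the saline libraries and 88.7, 88.4 and 87.8 FPKM in the CFA libraries. The CFA libraries were all above the saline libraries and closer to each other than the saline libraries were. The means of 71.4 ± 1.40 and 88.3 ± 0.494 FPKM (n = 3 each, SD) differed by 23.6% of the saline mean, a log2 change of 0.30 (limma, SE 0.0199 and adjusted p = 3.52e-05). Among genes of 50 to 200 FPKM, the class of Gja1, Vim and Slc1a3 by mean level, 16.3% were called higher and 30.0% lower. Among genes of at least 200 FPKM, the class of Gfap, Aqp4 and S100b, 27.9% were called higher and 42.9% lower. By the saline mean alone, Vim and Aqp4 would fall below their class.

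The glutamate transporter genes moved in opposite directions and by small amounts. Slc1a3 encodes GLAST (ENSRNOG00000016163, chromosome 2), a transporter enriched in astrocytes and radial glia. Its level was 65.9, 65.8 and 63.7 FPKM in the saline libraries and 69.1, 70.4 and 70.1 FPKM in the CFA libraries. The groups did not overlap, with the highest saline library at 65.9 FPKM and the lowest CFA library at 69.1 FPKM. The means were 65.1 ± 1.24 and 69.9 ± 0.665 FPKM (n = 3 each, SD), a rise of 7.35% and a log2 change of 0.10 (limma, SE 0.0209 and adjusted p = 0.0136). With the variance moderated without a trend the adjusted p was 0.0802.

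Slc1a2 encodes GLT-1 (ENSRNOG00000005479, chromosome 3), the transporter that carries most glutamate uptake in the forebrain. Its level was 30.1, 29.4 and 28.5 FPKM in the saline libraries and 26.3, 27.0 and 26.7 FPKM in the CFA libraries. All CFA libraries were below all saline libraries. The means were 29.3 ± 0.774 and 26.7 ± 0.361 FPKM (n = 3 each, SD), a ratio of 0.908. Slc1a2 was the 1 gene of the 8 that fell, with a log2 change of -0.13 (limma, SE 0.0287 and adjusted p = 0.0160). The adjusted p was 0.0597 without saline replicate 1 and 0.0546 without CFA replicate 1, while the log2 change was -0.12 in both. Fits without 1 library called 1758 to 1997 of all genes, against 2545 with all 6 libraries. In RefSeq (GRCr8) Slc1a2 and Cd44 are neighbours on chromosome 3 with 0 genes listed between them, and their levels moved in opposite directions.

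S100b encodes a calcium-binding protein of astrocytes that oligodendrocytes also make (ENSRNOG00000001295, chromosome 20). It was the most abundant of the 8 genes, in place 24 of all 22976 listed genes by mean level in each group. Its level was 1033, 1020 and 1021 FPKM in the saline libraries and 1036, 1026 and 1012 FPKM in the CFA libraries. The groups overlapped fully, with a CFA library at the top and another at the bottom. The means were 1024.5 ± 7.04 and 1024.6 ± 12.1 FPKM (n = 3 each, SD), and the 95% confidence interval of the log2 change reached from -0.025 to 0.025 (adjusted p = 1.000, limma). In this fit, a change of that size or less could not be told from none. The limit depends on how the variance is modelled, the SE being 0.0107 here and 0.0286 without a trend in the variance. In RefSeq (GRCr8) S100b overlaps Dip2a, and since no strand setting is given for the counts, fragments of Dip2a could be included.

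**Figure D2:**
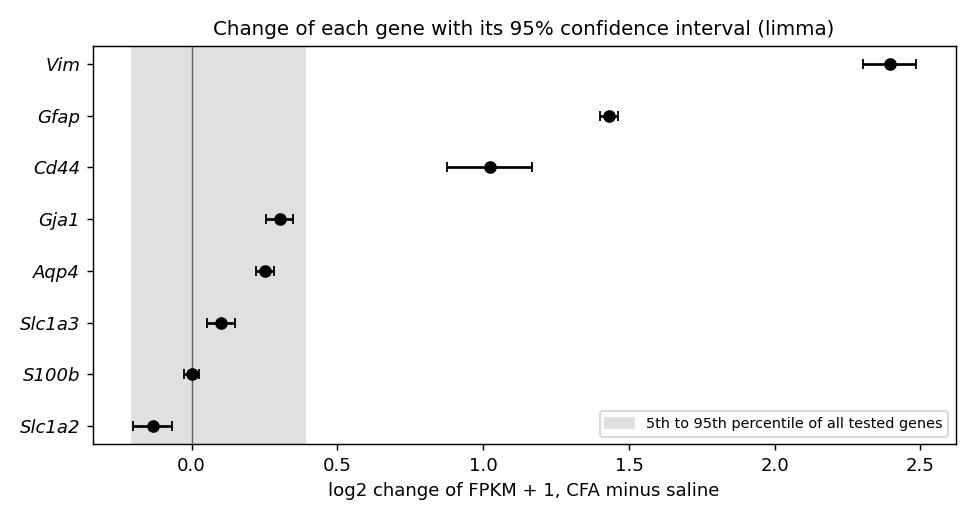
Log2 change of FPKM + 1 (CFA minus saline, horizontal axis) of each of the 8 genes with its 95% confidence interval from limma, with the range between the 5th and 95th percentile of all tested genes (-0.20 to 0.39) shaded. Vim, Gfap and Cd44 lie beyond that range, and the other 5 genes within it.

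The genes were also ordered by the size of their change. The 95% confidence intervals of the log2 change were 2.30 to 2.49 for Vim, 1.40 to 1.46 for Gfap and 0.88 to 1.17 for Cd44. The gap between Gfap and Cd44 depends on the added 1 FPKM, since with 0.01 FPKM added the log2 changes were 1.43 (SE 0.0131) and 1.40 (SE 0.0866), which differed by less than the SE of Cd44. Those of Gja1 (0.26 to 0.35) and Aqp4 (0.22 to 0.28) overlapped each other and lay above that of Slc1a3 (0.05 to 0.15). The interval of Slc1a2, from -0.20 to -0.07, lay below those of the other 7. From the 5th to the 95th percentile, all genes tested spanned log2 changes of -0.20 to 0.39, which holds the changes of 5 of the 8.

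**Figure D3:**
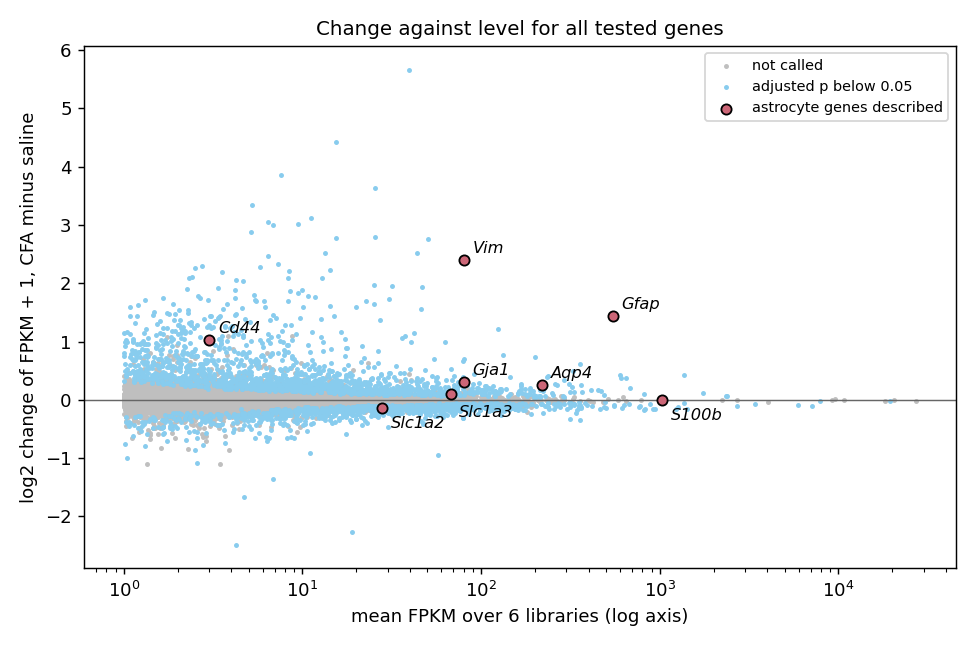
Log2 change of FPKM + 1 (CFA minus saline, vertical axis) against mean FPKM over 6 libraries (horizontal log axis) for all 13566 tested genes, with genes at adjusted p under 0.05 in pale blue and the 8 astrocyte genes in red. Gfap stands above all other genes of at least 200 FPKM, Vim lies among the largest rises, and S100b lies at 0.

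Pairs of genes were also compared by their ratio within each library, on the log2 scale. Such a ratio does not depend on how a library is scaled. The ratio of Gfap to Vim was 12.7, 11.2 and 11.5 in the saline libraries and 5.91, 5.94 and 5.76 in the CFA libraries. All CFA libraries had a lower ratio than all saline libraries, with a mean difference of -1.01 (CFA minus saline, log2).

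The ratio of Slc1a2 to Slc1a3 was 0.457, 0.447 and 0.448 in the saline libraries and 0.380, 0.383 and 0.382 in the CFA libraries. The mean difference was -0.24, with no overlap between groups. The ratio of Aqp4 to Gja1 was 2.77, 2.77 and 2.85 in the saline libraries and 2.68, 2.72 and 2.69 in the CFA libraries, a mean difference of -0.05. The ratio of Gfap to S100b was 0.288, 0.284 and 0.290 in the saline libraries and 0.765, 0.775 and 0.793 in the CFA libraries, a mean difference of 1.43. In each of the 4 ratios the groups were separate, and each gave p = 0.1 in an exact permutation test (two-sided, adjusted p = 0.1 over the 4 ratios), the smallest p that 3 against 3 libraries allow, so none can reach 0.05.

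**Figure D4:**
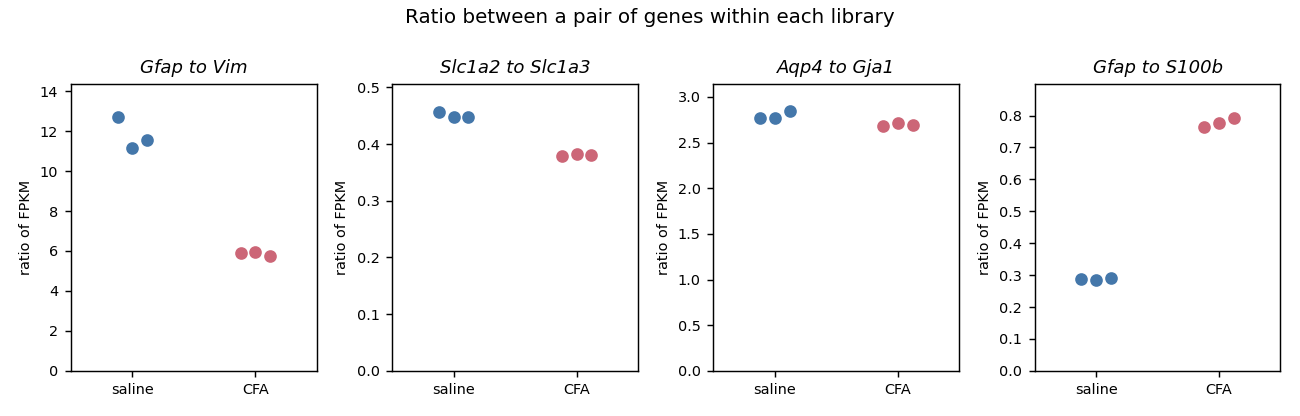
Ratio of FPKM between a pair of genes within each library (vertical axes, from 0), for 3 saline (blue) and 3 CFA (red) libraries. The ratio of Gfap to Vim is at least 11.2 in saline and at most 5.94 in CFA, that of Gfap to S100b at most 0.290 and at least 0.765, and the groups lie closer together in the ratios of Slc1a2 to Slc1a3 and of Aqp4 to Gja1.

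The order of levels per length shifted at 1 place. In saline it ran from S100b over Gfap, Aqp4, Gja1, Slc1a3, Slc1a2 and Vim to Cd44. In CFA, Vim moved from place 7 to place 4, above Gja1, and the rest kept their order. In each group the ranges of neighbours in the order did not overlap. FPKM rests on the length assumed for each gene, which the steps between values give, up to a common divisor, as 3343 bases for Gfap, 2715 for Slc1a2 and 5507 for Slc1a3. Summed over the 8 genes, the level was 1711.4 ± 8.51 FPKM in saline and 2383.9 ± 4.85 FPKM in CFA (n = 3 each, SD), or 0.496% ± 0.00194 and 0.718% ± 0.00117 of all fragments.

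The coefficient of variation over 3 libraries ran from 0.560% (Gja1 in CFA) to 5.55% (Vim in saline), where the median of all genes tested was 4.54% in saline and 4.84% in CFA. It was above that median for Vim and Cd44 in saline and for Cd44 in CFA. In fragments, the variance between libraries was 0.448 times counting noise for Slc1a2 in CFA and 9.41 times for S100b in CFA, the lowest and the highest among the 8 genes and both groups. The median over all genes with at least 5 expected fragments in each library was 1.98 in saline and 1.96 in CFA. At a given coefficient of variation this ratio grows with the fragments of a gene. A value above the median therefore does not by itself mark an unusually variable gene. Of the 8 genes, 7 were above that median in saline, among them Gfap at 8.43, Vim at 5.66, Gja1 at 5.10 and Slc1a3 at 5.04, and 4 were above it in CFA.

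Genes outside the 8 with the most similar pattern were found by the distance between log2(FPKM + 1) profiles over the 6 libraries, each set to its own mean. The files pair their identifiers with no name. The nearest to Gfap was ENSRNOG00000063244 (distance 0.0701), which went from 7.69 ± 0.114 to 22.5 ± 0.669 FPKM (n = 3 each, SD). Nearest to Vim was ENSRNOG00000011913 (distance 0.176), which went from 3.24 ± 0.134 to 23.4 ± 0.822 FPKM (n = 3 each, SD). For Aqp4 it was ENSRNOG00000032699 (distance 0.0286), which went from 198.7 ± 1.35 to 235.1 ± 1.02 FPKM (n = 3 each, SD). Within the 8, the closest profile to that of Aqp4 was that of Gja1 (distance 0.0718). The closest to Gfap was that of Cd44 (distance 0.509). Both were farther away than the nearest gene outside the 8. That gene was picked from a far larger pool, so this order was all but fixed in advance.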

How the data were processed

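The authors deposited FPKM values, 1 column per library, which the labels' library names matched to samples. The submitters' processing notes name HISAT2 2, StringTie 2, fastp 0.21.0 and DESeq2 1.30.1 without saying what each did, and the build mRatBN7.2. For the counting of fragments, its annotation, strand setting and filters were not given in the sources used here.

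FPKM values of a gene are whole multiples of a smallest step. From these steps the fragments, gene lengths and library totals were worked out, and all 22976 genes came out whole within 0.0001. The step was also run on FPKM values that were made by formula from set fragments of 3982 genes. All 6 totals and the fragments of 98.7% of these genes came back. Whether the fragments and lengths worked out for the libraries themselves are the true ones was not tested. SEs and intervals do not cover PCR duplicates.

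The main test was limma 3.58.1 (R 4.3.3: lmFit, then eBayes using the mean-variance trend) of log2(FPKM + 1) in genes averaging at least 1 FPKM, the pseudocount also being 1 FPKM. It was two-sided with 4 residual degrees of freedom, and p-values were adjusted over all 13566 genes by Benjamini-Hochberg. Python 3.11.15 with pandas 2.3.3, numpy 2.4.6 and matplotlib 3.10.9 made tables and figures. Variance over counting noise used genes with 5 or more expected fragments in each library.

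The 8 genes and the lists were chosen with earlier results of these data known, and the 8 were always to be named. The 15 planned lists of partner genes and cell type markers are in symbols and were not analysed here, since 0 identifiers matched the reference. Protein comparisons were not run either. The rule for similar patterns gave 3 genes each for Gfap, Vim and Aqp4, of which only the nearest to each is printed because they have no name here.

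Alternatives were pseudocounts of 0.1 and 0.01, other filters (any value above 0, means of 0.1 or 5 FPKM), 4 scalings, variance without a trend or robust, a replicate block, voom on fragments and each library left out. No sequencing batch or date is labelled.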

Additional observations from a re-analysis of the deposited data

How the results depend on the processing

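In all alternatives that tested them (19 each, 18 for Cd44, whose mean is under 5 FPKM), Gfap, Vim, Cd44, Aqp4 and Gja1 stayed higher in CFA with an adjusted p below 0.05 (limma). Their log2 changes ranged from 1.41 to 1.46 for Gfap, 2.35 to 2.45 for Vim, 0.95 to 1.40 for Cd44, 0.23 to 0.28 for Aqp4 and 0.28 to 0.32 for Gja1. Slc1a2 and Slc1a3 kept their direction in all 19. With each library left out, the log2 change of Slc1a2 ranged from -0.15 to -0.12, and its adjusted p was 0.0597 without saline replicate 1 and 0.0546 without CFA replicate 1, in fits with fewer libraries. Without a trend in the variance, Slc1a3 had the same log2 change of 0.10 with an SE of 0.0305 in place of 0.0209. Its adjusted p was then 0.0802 (limma), and the cause of the larger SE was not tested.

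S100b was not called in any alternative. Its log2 change was 0.028 with cyclic loess scaling (adjusted p = 0.106, limma), -0.018 with median ratio scaling, and -0.0079 to 0.0090 with each library left out. The number of the 8 genes called was 6 or 7 in all alternatives. The 4 ratios kept their direction with each library left out and with 1 FPKM added. Depth limits Cd44 most, with 227 fragments in 1 library.

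Of all genes tested, 1015 were called lower and 1530 higher. The lower count was 600 to 781 with each library left out (fewer libraries by construction) and 666 without a trend in the variance, the cause of which was not tested. Under quantile scaling the split turned to 1391 lower against 1197 higher, while the 7 genes called here were called under all 4 scalings. A fit with the replicate number as a block called 7 of the 8 genes (adjusted p = 0.0441 for Slc1a2, limma) and 2086 of all genes. The numbers are not said to mark animals, days or batches, and same-numbered libraries shared no deviation, the correlations across genes being -0.021 to 0.023. Of the saline libraries, replicate 1 did not correlate best with its own number.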
